A study of Homo sapiens with 32 samples.

Results

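The 45 genes described here act in autophagy and in the lysosome, the V-ATPase left aside. They were listed by gene symbol, with earlier results of these data known. All 45 had a row in each of the 6 count tables, which hold 16603 to 57445 rows with 13499 symbols common to all. RNA was measured in 4 human prostate cancer lines, in 32 libraries that form 16 groups of 2. Knockdown libraries came from cells infected with an shRNA against CSN5 (shCSN5), and their controls from the same line infected with a scramble shRNA, in LNCaP, C4-2, 22Rv1 and PC3. The small molecule CSN5i-3, an inhibitor of CSN5, was given at 10 µM to PC3 cells and at 5 µM to the 22Rv1 and LNCaP lines, with DMSO as the control. LNCaP is an androgen-dependent line, C4-2 a castration-resistant line derived from it, 22Rv1 another castration-resistant line, and PC3 an androgen-independent line without functional p53. No other allele or agent is named, and the labels give no time of treatment. The C4-2 inhibitor libraries carry conflicting labels: libraries titled C5i have a DMSO description and libraries titled NT a CSN5i-3 description with a dose of 1 µM. Which of them had the drug is not decided here, and their difference is reported by title, C5i minus NT; read by the descriptions, the sign of each would turn. PC3 shCSN5 replicate 2 has a characteristic that names a drug-treated cell, against its title and description, which were used.

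Macroautophagy wraps cytoplasm in a double membrane that seals into an autophagosome and fuses with the lysosome, where acid hydrolases break the cargo down. WIPI proteins, ATG2A and ATG9A build the membrane, a ubiquitin-like conjugation system attaches ATG8 proteins (the LC3 and GABARAP families) to it, and receptors such as SQSTM1 tie ubiquitin-tagged cargo to those ATG8 proteins. The MiT/TFE transcription factors TFEB, TFE3 and MITF switch on many of these genes. The COPS5 gene encodes CSN5, the protease of the COP9 signalosome, which takes the ubiquitin-like protein NEDD8 off cullin-RING ubiquitin ligases.

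COPS5 fell in all 4 knockdown lines, to 1.79 to 17.2 CPM (counts per M of the scaled library total) in shCSN5 libraries against 52.7 to 130.2 CPM in scramble libraries, with log2 fold changes (treated minus control, ± SE, n = 2 libraries per group here and below) of -4.50 ± 0.26 in LNCaP, -3.56 ± 0.12 in C4-2, -2.68 ± 0.11 in 22Rv1 and -3.18 ± 0.12 in PC3. In the inhibitor experiment it stood at 102 and 102 CPM in PC3 CSN5i-3 libraries, against 72.9 and 73.8 CPM in PC3 DMSO libraries (0.48 ± 0.033), was not called in LNCaP (0.11 ± 0.087) or 22Rv1 (0.16 ± 0.15), and differed by -0.38 ± 0.09 between the titled C4-2 pairs. Libraries held 20.6 to 50.9 M counts. The 6 luminal prostate markers (KLK3, KRT8 and others) summed to 343 to 579 CPM in PC3 libraries and to 1410.0 to 6957 CPM in those of the other lines, and the 4 mesenchymal markers typical of PC3 to 1829 to 3048 CPM in PC3 libraries and 3.08 to 233.4 CPM elsewhere. Nothing in the labels says whether the libraries of a group came from separate cultures, and the p-values cover only the spread between libraries, which may be technical. In bulk RNA fewer cells that express a gene and less RNA per cell cannot be told apart.

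Most members that changed were higher in the shCSN5 and CSN5i-3 libraries. A gene was called at a Benjamini-Hochberg adjusted p under 0.05 in edgeR's quasi-likelihood test, fitted over all genes of a comparison. In LNCaP shCSN5 libraries 20 of 45 tested members were called higher and 1 lower than in scramble libraries, where 18.3% of all genes tested were called higher and 17.4% lower. In C4-2 19 of 44 were called higher and 0 lower, against 15.7% and 16.2% of all genes; at an unadjusted p under 0.05 edgeR had 1 member lower, and DESeq2 called 17 higher and 0 lower. In 22Rv1 29 of 44 were higher and 1 lower (22.6% and 21.3% of all genes), and in PC3 9 of 44 were higher and 2 lower (10.3% and 6.41%). The median change of the tested members was 0.45 in LNCaP, 0.31 in C4-2, 0.35 in 22Rv1 and 0.10 in PC3, beside medians of all genes of -0.01, -0.02, 0.02 and 0.04. The PC3 median was 0.05 with median-ratio factors, with that of all genes at -0.01, and 0.02 without scramble replicate 1, the same as for all genes.

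With the inhibitor too, more members were higher than lower. In LNCaP with 5 µM CSN5i-3, 33 of 45 were called higher and 1 lower, where 26.2% of all genes were called higher and 26.5% lower. In 22Rv1 13 of 45 were higher and 1 lower (11.8% and 12.2% of all genes), and in PC3 at 10 µM 30 of 44 were higher and 9 lower (38.5% of all genes in each direction). In C4-2, 35 of 44 members were higher and 3 lower in the pair titled C5i than in the pair titled NT (37% and 37.9% of all genes). The median change of the tested members was 0.58 in LNCaP, 0.41 in 22Rv1 and 0.36 in PC3 with CSN5i-3, and 0.87 between the titled C4-2 pairs, beside medians of all genes of 0.00, -0.04, -0.01 and -0.01. Counts in 3 comparisons depended on which group was left with 1 library, and the share of all genes called moved with them. In LNCaP knockdown 40 or 35 members were called without shCSN5 replicate 1 or 2, where 67.9% or 73.1% of all genes were called, and 9 or 10 without scramble replicate 1 or 2, where 13.7% or 13.6% of all genes were. Leaving out PC3 shCSN5 replicate 1 or 2 left 3 or 5 calls in PC3 knockdown, and 6.67% or 6.6% of all genes. In 22Rv1 with CSN5i-3, leaving out DMSO replicate 1 or 2 left 7 or 9 calls, and 18.9% or 16.9% of all genes.

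Markers of cell type moved with some of these groups. The 6 luminal markers, all of them listed, summed to 2431 to 2509 CPM with CSN5i-3 in LNCaP, against 4133 to 4311 CPM with DMSO. Between the titled C4-2 pairs they summed to 2495 to 2598 CPM in those titled C5i, against 4501 to 4604 CPM in those titled NT. In PC3 with CSN5i-3 they summed to 500 to 516.8 CPM, against 571.9 to 578.6 CPM with DMSO. They were higher in 22Rv1 with CSN5i-3, at 1945 to 2651 CPM, against 1410 to 1483 CPM with DMSO. The same held in 22Rv1 knockdown (1551 to 1671 against 1429 to 1465 CPM). LNCaP knockdown also had higher sums (6225 to 6957 against 6064 to 6165 CPM). In C4-2 and PC3 knockdown the ranges overlapped. The 4 mesenchymal markers summed to 24.3 to 24.6 CPM in LNCaP shCSN5 libraries, against 5.85 to 6.51 CPM with scramble, and in PC3 to 2148 to 2152 CPM with shCSN5, against 3000.0 to 3048 CPM with scramble. Of these 4, the LNCaP inhibitor table lists 1 (AXL, CAV1 and CD44 are not in it), at 21.9 to 22.6 CPM with CSN5i-3, against 3.08 to 3.48 CPM with DMSO. In 22Rv1 all 4 are listed and summed to 164.4 to 167.1 CPM with shCSN5, against 114.5 to 126.5 CPM with scramble, and to 207.2 to 233.4 CPM with CSN5i-3, against 88.9 to 99.2 CPM with DMSO. The 5 fibroblast markers summed to 16.03 to 16.16 CPM in PC3 with CSN5i-3, against 61.3 to 65.8 CPM with DMSO, to 33.4 to 34.5 CPM in 22Rv1 with CSN5i-3, against 14.5 to 15.5 CPM with DMSO, and, with 2 of 5 listed, to 19.6 to 19.9 CPM in C4-2 libraries titled C5i, against 3.16 to 4.62 CPM in those titled NT. Their part in the changes of the members was not tested.

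**Figure D1:**
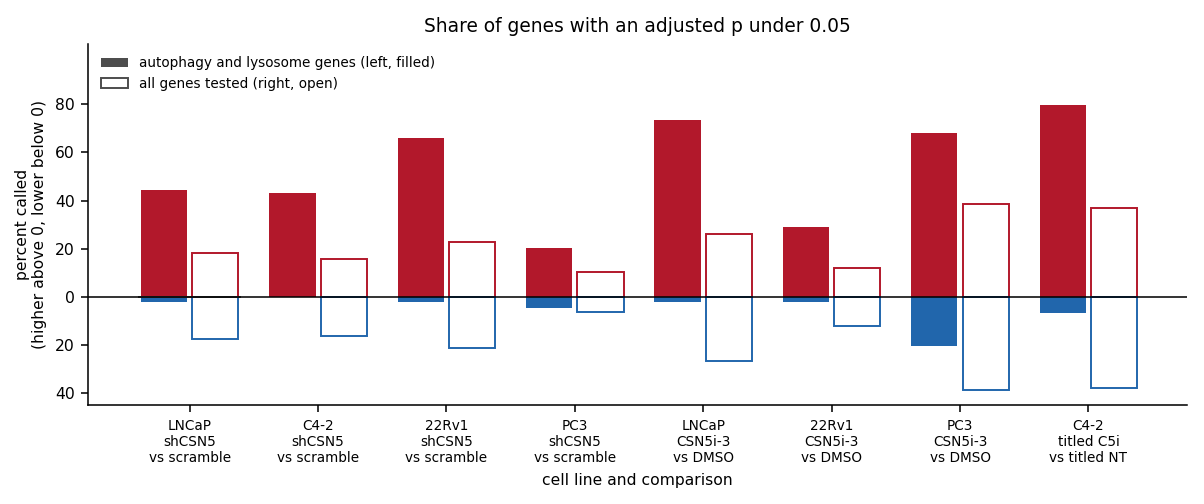
Percent of genes called higher (above 0) and lower (below 0) in each of the 8 comparisons, for the tested autophagy and lysosome genes (filled bars) and for all genes tested (open bars). In every comparison the filled bar above 0 is taller than its open neighbour and the filled bar below 0 is shorter; in LNCaP with CSN5i-3, 33 of 45 members were higher beside 26.2% of all genes.

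**Figure D2:**
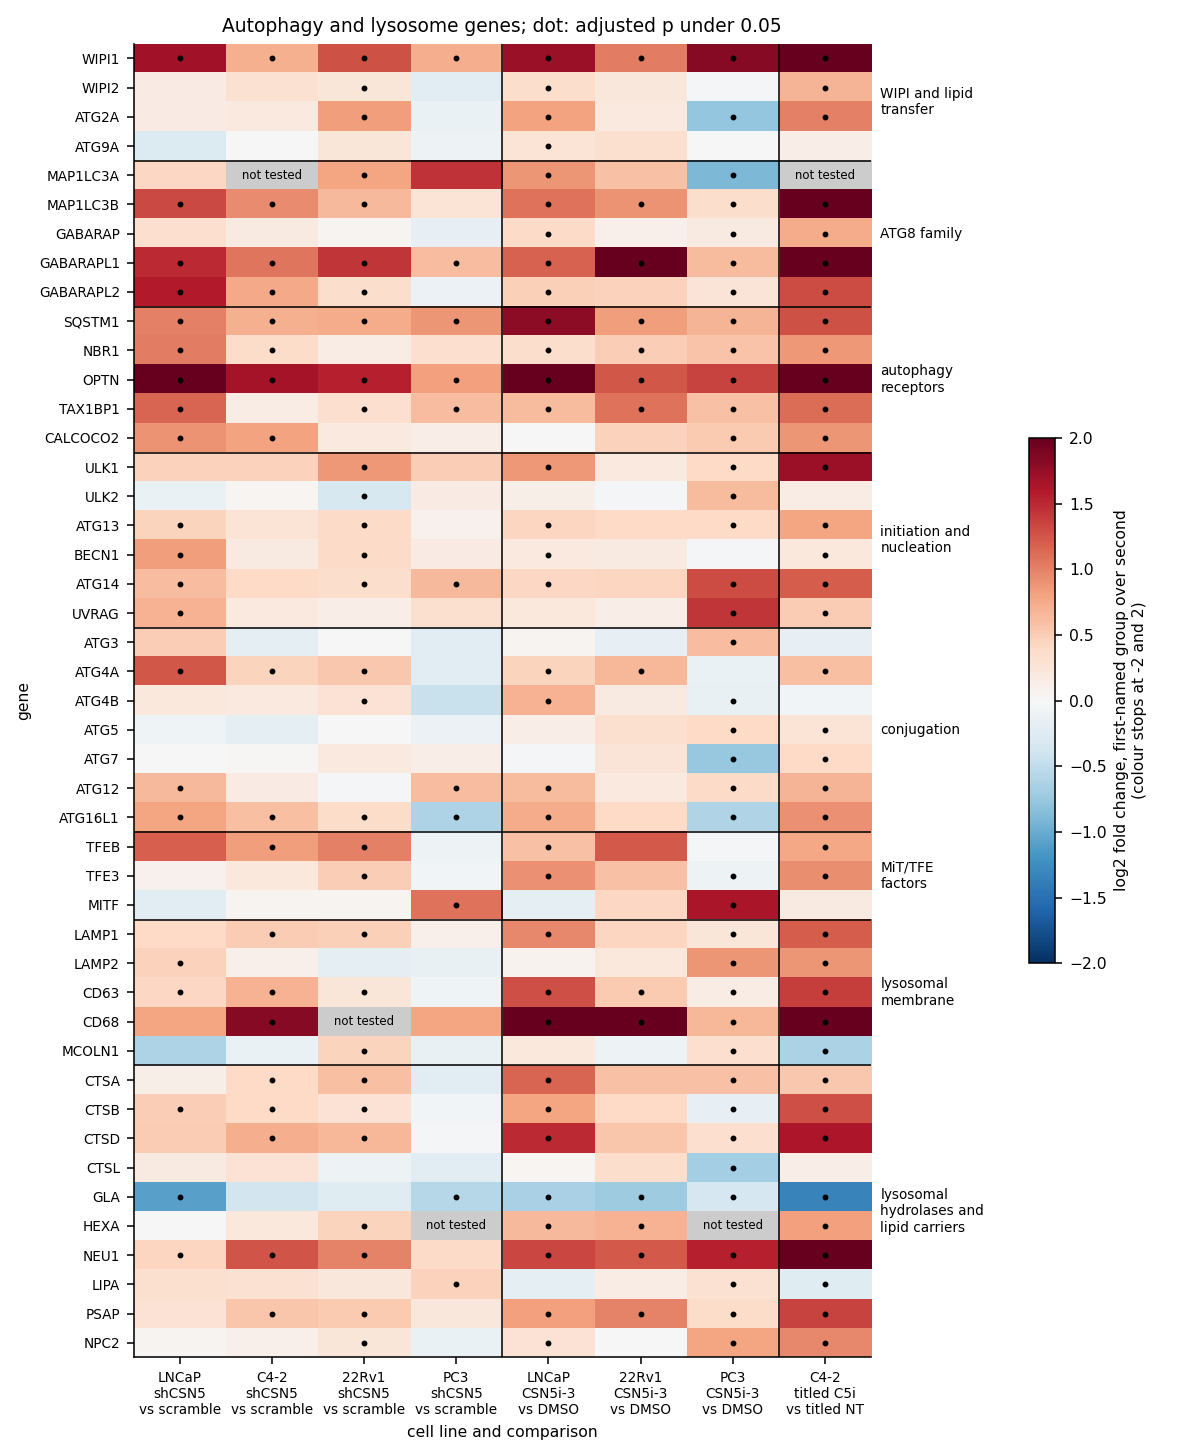
Log2 fold change of each of the 45 members in the 8 comparisons, ordered by role; red is higher and blue lower in the shCSN5, CSN5i-3 or titled C5i libraries, a dot marks an adjusted p under 0.05, and grey cells were not tested. WIPI1, GABARAPL1, SQSTM1 and OPTN carry a dot on red in every column, and GLA is blue in every column.

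Across the 4 knockdown lines, 4 members were called higher in all 4 (WIPI1, GABARAPL1, SQSTM1 and OPTN), 9 in exactly 3, 10 in 2, 14 in 1 and 8 in 0 lines. The same 4 were also called higher in all 3 lines given CSN5i-3 and in the pair titled C5i, and 11 members in all were higher in all 3 inhibitor lines. GLA was the one member called lower in more than 1 line of either experiment.

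WIPI1 stood out among the membrane-building proteins. It binds phosphatidylinositol 3-phosphate on the forming membrane. In the knockdown experiment WIPI1 had 63.6 and 50.5 CPM in LNCaP shCSN5 libraries, against 18.1 and 17.5 CPM in LNCaP scramble libraries. It had 40.4 and 38.8 CPM in C4-2 shCSN5 libraries, against 24.7 and 23.4 CPM in C4-2 scramble libraries, and 40.5 and 43 CPM in 22Rv1 shCSN5 libraries, against 17.1 and 17.3 CPM in 22Rv1 scramble libraries. Both knockdown libraries lay above both scramble libraries in all 4 lines, and the changes were 1.68 ± 0.18 in LNCaP, 0.72 ± 0.12 in C4-2, 1.28 ± 0.11 in 22Rv1 and 0.73 ± 0.11 in PC3. With the inhibitor WIPI1 had 38.1 and 37.1 CPM in LNCaP CSN5i-3 libraries, against 11.2 and 11.6 CPM in LNCaP DMSO libraries (1.73 ± 0.082), and 246 and 245 CPM in PC3 CSN5i-3 libraries, against 69.4 and 69.3 CPM in PC3 DMSO libraries (1.82 ± 0.03). The 22Rv1 change was 1.02 ± 0.18 and that of the titled C4-2 pairs 1.99 ± 0.10. The 22Rv1 inhibitor call was lost without DMSO replicate 2 (adjusted p = 0.0679). The PC3 knockdown call of WIPI1 (adjusted p = 0.0173) was lost when either shCSN5 library was left out, the highest adjusted p over its alternatives being 0.0767. In GENCODE 29, 24.3% of the exon bases of WIPI1 overlap ARSG on the other strand, and whether counting used strand is not stated in the sources at hand.

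The other 3 proteins of this group moved less evenly. WIPI2, which recruits ATG16L1 to the membrane, was called higher in 22Rv1 knockdown (0.23 ± 0.079), in LNCaP with CSN5i-3 (0.35 ± 0.072) and between the titled pairs (0.68 ± 0.076). ATG2A, which feeds lipid into the growing membrane, had 46.8 and 46.2 CPM in LNCaP CSN5i-3 libraries, against 22.5 and 30.8 CPM in LNCaP DMSO libraries (0.80 ± 0.14), and 57.3 and 57.9 CPM in PC3 CSN5i-3 libraries, against 98.5 and 97.5 CPM in PC3 DMSO libraries (-0.77 ± 0.035). ATG2A was thus higher in LNCaP and lower in PC3 with the inhibitor, with no overlap of libraries in either line. It also rose in 22Rv1 knockdown (0.83 ± 0.19). Its LNCaP shCSN5 libraries held 36 and 69.6 CPM around scramble values of 46.9 and 47.4 CPM, an overlap. ATG9A, the lipid scramblase of the seed vesicles, was called in LNCaP with CSN5i-3 alone (0.27 ± 0.093). Leaving out either CSN5i-3 library ended the LNCaP inhibitor calls of ATG9A (adjusted p up to 0.263) and WIPI2 (up to 0.0864), and leaving out either shCSN5 library that of WIPI2 in 22Rv1 knockdown (up to 0.177). The 22Rv1 knockdown call of ATG2A was lost with a spread shared over all shRNA libraries (adjusted p = 0.068).

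**Figure D3:**
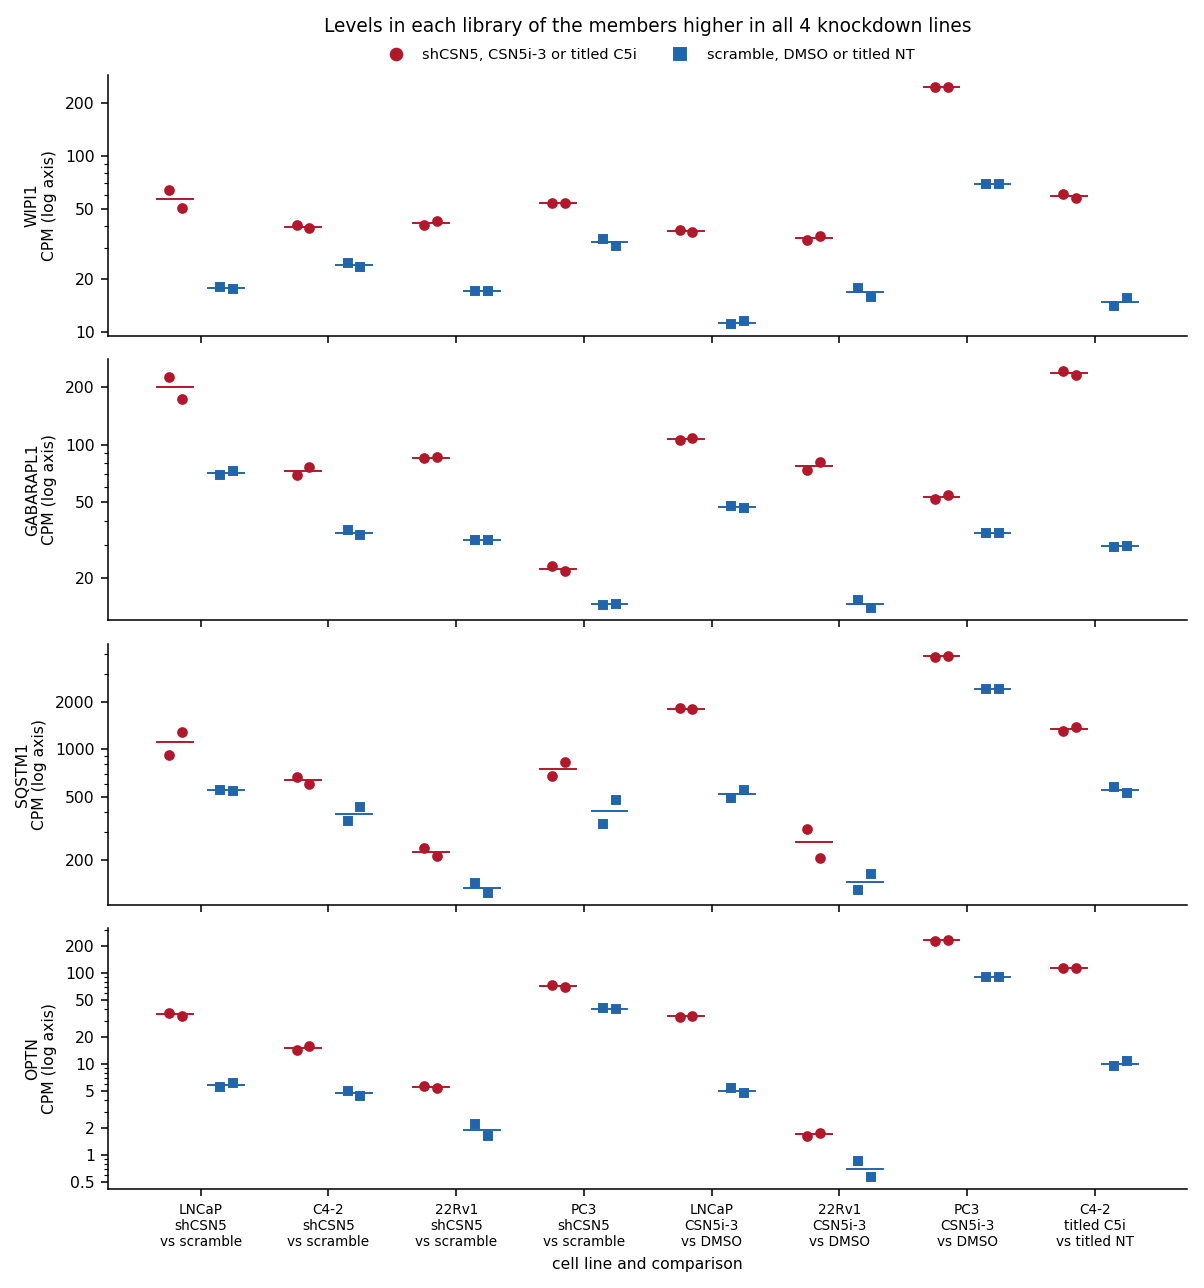
CPM (log axis) of WIPI1, GABARAPL1, SQSTM1 and OPTN in each of the 32 libraries; circles are shCSN5, CSN5i-3 or titled C5i libraries, squares are scramble, DMSO or titled NT libraries, and a line marks the mean of each group of 2. In every comparison both circles lie above both squares for each gene; OPTN in LNCaP stands at 32.9 and 34.1 CPM with CSN5i-3 against 5.46 and 4.75 CPM with DMSO.

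Of the ATG8 family, GABARAPL1 was called higher in all 4 knockdown lines, with CSN5i-3 in all 3 lines and in the pair titled C5i. It had 226 and 173 CPM in LNCaP shCSN5 libraries, against 69.1 and 72.9 CPM in LNCaP scramble libraries, and 85.2 and 86 CPM in 22Rv1 shCSN5 libraries, against 31.8 and 31.8 CPM in 22Rv1 scramble libraries. These are changes of 1.49 ± 0.16 and 1.43 ± 0.088, beside 1.07 ± 0.11 in C4-2 and 0.62 ± 0.13 in PC3. Of the 3 lines given CSN5i-3, 22Rv1 had the largest change of GABARAPL1, at 73.8 and 81.2 CPM in 22Rv1 CSN5i-3 libraries, against 15.4 and 13.9 CPM in 22Rv1 DMSO libraries. That is 2.40 ± 0.17, beside 1.19 ± 0.069 in LNCaP and 0.63 ± 0.043 in PC3. The pair titled C5i held 242 and 231 CPM against 29.3 and 29.6 CPM in the pair titled NT (3.01 ± 0.08). No GABARAPL1 libraries overlapped between groups. In PC3 knockdown the call (adjusted p = 0.0328) was lost without either shCSN5 library, with adjusted p over the alternatives up to 0.251.

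MAP1LC3B, the LC3 protein used as a marker of autophagosomes, was called higher in 3 knockdown lines and in all 3 inhibitor lines. It had 122 and 99.7 CPM in LNCaP shCSN5 libraries, against 45.8 and 42.9 CPM in LNCaP scramble libraries (1.32 ± 0.16), with changes of 0.94 ± 0.12 in C4-2 and 0.66 ± 0.081 in 22Rv1. PC3 knockdown gave 0.28 ± 0.11, which was not called, although both shCSN5 libraries lay above both scramble libraries. With CSN5i-3 the changes were 1.08 ± 0.073 in LNCaP, 0.90 ± 0.15 in 22Rv1 and 0.36 ± 0.029 in PC3. Reads of MAP1LC3B can be split with its near-identical copy MAP1LC3B2, whose counts reached 34.2% of those of MAP1LC3B in the titled C4-2 table but 2.05% at most in the 4 tables with Ensembl identifiers. With the counts of both added, MAP1LC3B changed by 1.15 in LNCaP with CSN5i-3 and by 2.39 between the titled pairs, a check chosen after the data were seen.

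GABARAPL2 followed the same 3 knockdown lines. Its LNCaP value was 1.58 ± 0.13, with 0.76 ± 0.11 in C4-2 and 0.35 ± 0.08 in 22Rv1, and it had 80.4 and 76.6 CPM in PC3 shCSN5 libraries, against 86.7 and 82.9 CPM in PC3 scramble libraries, a difference of -0.11 ± 0.10 that was not called. GABARAP itself was called higher with CSN5i-3 in LNCaP (0.38 ± 0.058) and PC3 (0.18 ± 0.036) and in the pair titled C5i (0.74 ± 0.066). MAP1LC3A, another LC3 form, had 25.2 and 22.1 CPM in 22Rv1 shCSN5 libraries, against 16.3 and 11.1 CPM in 22Rv1 scramble libraries (0.79 ± 0.17). It was higher in LNCaP with CSN5i-3 (0.88 ± 0.16) and lower in PC3, at 1.2 and 1.48 CPM in PC3 CSN5i-3 libraries, against 2.54 and 2.44 CPM in PC3 DMSO libraries (-0.90 ± 0.19). In C4-2 it had 6 counts in the shCSN5 libraries and 5 in the scramble libraries and was not tested there, nor in the titled pairs (10 and 6 counts).

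The autophagy receptors were called higher in most comparisons: all 5 in LNCaP knockdown, in PC3 with CSN5i-3 and in the pair titled C5i, 4 of 5 in C4-2 knockdown and in LNCaP and 22Rv1 with CSN5i-3, and 3 of 5 in 22Rv1 and PC3 knockdown. OPTN, which carries damaged mitochondria and bacteria into autophagosomes, had 36.5 and 33.8 CPM in LNCaP shCSN5 libraries, against 5.56 and 6.16 CPM in LNCaP scramble libraries. That is 2.58 ± 0.17, a fold change of 6, and the C4-2 and 22Rv1 changes were 1.66 ± 0.16 and 1.56 ± 0.20. OPTN stood at 73.5 and 69.6 CPM in PC3 shCSN5 libraries, against 40.9 and 40.5 CPM in PC3 scramble libraries (0.81 ± 0.10). The scramble level of OPTN was thus several-fold higher in PC3 than in LNCaP, whose libraries share a table, and PC3 showed the smallest of the 4 knockdown changes. A link between the scramble level and the size of the change was not tested.

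With the inhibitor OPTN had 32.9 and 34.1 CPM in LNCaP CSN5i-3 libraries, against 5.46 and 4.75 CPM in LNCaP DMSO libraries (2.71 ± 0.10), and 228 and 229.5 CPM in PC3 CSN5i-3 libraries, against 89.6 and 90.0 CPM in PC3 DMSO libraries (1.35 ± 0.029). In 22Rv1 it was low, at 1.61 and 1.75 CPM in 22Rv1 CSN5i-3 libraries, against 0.85 and 0.564 CPM in 22Rv1 DMSO libraries (1.24 ± 0.29). Both treated libraries were above both DMSO libraries in each line. The titled pairs differed by 3.52 ± 0.10, at 115 CPM in both libraries titled C5i against 9.41 and 10.7 CPM in those titled NT. The 22Rv1 inhibitor call of OPTN (adjusted p = 0.0254) was lost with DESeq2 and without DMSO replicate 2, with adjusted p up to 0.116.

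SQSTM1, which encodes p62, the receptor that gathers ubiquitinated protein and is itself degraded by autophagy, had 925 and 1283 CPM in LNCaP shCSN5 libraries, against 552 and 547 CPM in LNCaP scramble libraries (1.01 ± 0.17). It had 675 and 828 CPM in PC3 shCSN5 libraries, against 337 and 474 CPM in PC3 scramble libraries (0.89 ± 0.19), and C4-2 and 22Rv1 changed by 0.71 ± 0.12 and 0.75 ± 0.093. No shCSN5 library fell within the range of its scramble group. With CSN5i-3, SQSTM1 had 1816 and 1783 CPM in LNCaP CSN5i-3 libraries, against 493 and 548 CPM in LNCaP DMSO libraries (1.79 ± 0.066), and 3816 and 3892 CPM in PC3 CSN5i-3 libraries, against 2413 and 2411 CPM in PC3 DMSO libraries (0.68 ± 0.021). The 22Rv1 change of 0.84 ± 0.23 was lost without DMSO replicate 1 and with total-count scaling, and that of C4-2 knockdown without scramble replicate 1 (adjusted p over the alternatives up to 0.0854 and 0.0516). MRNIP overlaps 20.7% of its exon bases on the other strand.

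NBR1, a receptor for ubiquitinated protein and peroxisomes, was called higher in LNCaP (1.03 ± 0.14) and C4-2 knockdown (0.37 ± 0.094) and with CSN5i-3 in LNCaP (0.35 ± 0.069), 22Rv1 (0.49 ± 0.13) and PC3 (0.57 ± 0.03). TAX1BP1, a receptor for protein aggregates, rose in 3 knockdown lines, and it had 535 and 619 CPM in 22Rv1 CSN5i-3 libraries, against 294 and 251.4 CPM in 22Rv1 DMSO libraries (1.08 ± 0.15). Its PC3 knockdown call (0.62 ± 0.11) was lost without shCSN5 replicate 1 (adjusted p = 0.112). CALCOCO2, which encodes NDP52, a receptor for bacteria and mitochondria, was called in LNCaP (0.89 ± 0.16) and C4-2 knockdown (0.81 ± 0.10). Without either scramble library the LNCaP call of CALCOCO2 was lost (adjusted p up to 0.141). That of NBR1 held in every alternative, but its C4-2 call was lost without either shCSN5 library or scramble replicate 2 (up to 0.246), its LNCaP inhibitor call without CSN5i-3 replicate 2 (0.0722) and its 22Rv1 inhibitor call without either DMSO library or CSN5i-3 replicate 2 (up to 0.346). In LNCaP with CSN5i-3 the libraries of CALCOCO2 overlapped, at 102 and 112 CPM in LNCaP CSN5i-3 libraries, against 111 and 104 CPM in LNCaP DMSO libraries (-0.00 ± 0.077).

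Among the 6 initiation and nucleation genes, 4 were called higher in LNCaP knockdown, 4 higher and 1 lower in 22Rv1 knockdown, 4 higher in LNCaP with CSN5i-3 and 5 higher in PC3 with CSN5i-3. In C4-2 knockdown their changes ran from 0.04 to 0.46 and in 22Rv1 with CSN5i-3 from -0.04 to 0.43, short of the threshold. ATG14, which directs the class III PI3 kinase complex to the endoplasmic reticulum, was called in 3 knockdown lines. It had 115 and 114 CPM in PC3 shCSN5 libraries, against 76.5 and 68.9 CPM in PC3 scramble libraries (0.65 ± 0.10), with 0.61 ± 0.18 in LNCaP and 0.34 ± 0.12 in 22Rv1. With the inhibitor it had 132 and 135 CPM in PC3 CSN5i-3 libraries, against 54.2 and 54.3 CPM in PC3 DMSO libraries (1.30 ± 0.033). Both treated libraries exceeded both control libraries in every line and experiment. All 3 of its knockdown calls were lost when 1 library was left out, with adjusted p up to 0.474 in LNCaP, 0.248 in 22Rv1 and 0.0751 in PC3.

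UVRAG takes the place of ATG14 in another form of that complex. It had 79.5 and 82.1 CPM in PC3 CSN5i-3 libraries, against 30.5 and 29.6 CPM in PC3 DMSO libraries (1.43 ± 0.041). It was also called in LNCaP knockdown (0.69 ± 0.17) and the pair titled C5i (0.51 ± 0.10). BECN1, the scaffold of the complex, rose in LNCaP (0.83 ± 0.14) and 22Rv1 knockdown (0.38 ± 0.076) and stood at 65.1 and 64 CPM in PC3 CSN5i-3 libraries, against 67.6 and 64.8 CPM in PC3 DMSO libraries, which overlap. ATG13, the adaptor of the ULK kinase complex, was called at 0.39 to 0.45 in LNCaP and 22Rv1 knockdown and in LNCaP and PC3 with CSN5i-3. ULK1, the initiating kinase, had 116 and 127 CPM in C4-2 titled C5i libraries, against 44.1 and 30.0 CPM in C4-2 titled NT libraries (1.72 ± 0.15). Its LNCaP shCSN5 libraries, at 34.1 and 82.0 CPM, straddled the scramble values of 43.2 and 41.0 CPM. ULK2, its paralog, was lower in 22Rv1 knockdown at 36.1 and 36.8 CPM in 22Rv1 shCSN5 libraries, against 46.6 and 44.8 CPM in 22Rv1 scramble libraries (-0.33 ± 0.095, lost without either shCSN5 library, with adjusted p up to 0.174), and higher in PC3 with CSN5i-3 (0.63 ± 0.083). In LNCaP knockdown the calls of UVRAG, BECN1 and ATG13 were lost without either scramble library, with adjusted p up to 0.383, 0.158 and 0.524. In LNCaP with CSN5i-3 those of ATG14 and BECN1 were lost without either CSN5i-3 library, with adjusted p over all alternatives up to 0.084 and 0.34.

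The conjugation machinery was divided. ATG16L1, which places the conjugation enzyme on the membrane, was called higher in 3 knockdown lines and lower in PC3. It had 59.7 and 53.1 CPM in LNCaP shCSN5 libraries, against 32.8 and 32.7 CPM in LNCaP scramble libraries (0.78 ± 0.15), with 0.61 ± 0.13 in C4-2 and 0.37 ± 0.10 in 22Rv1. It had 75.6 and 75.6 CPM in PC3 shCSN5 libraries, against 116 and 117 CPM in PC3 scramble libraries (-0.62 ± 0.091). LNCaP and PC3 also split with the inhibitor, at 30.4 and 32.4 CPM in LNCaP CSN5i-3 libraries, against 19.5 and 17.9 CPM in LNCaP DMSO libraries (0.75 ± 0.087), and 55.3 and 55.8 CPM in PC3 CSN5i-3 libraries, against 85.9 and 83.4 CPM in PC3 DMSO libraries (-0.61 ± 0.036). Groups did not overlap in any of the 8 comparisons. The PC3 knockdown call (adjusted p = 0.0151) was lost without either shCSN5 library, with adjusted p up to 0.0918, and that of LNCaP knockdown without either scramble library, with adjusted p up to 0.268. The C4-2 call was lost without replicate 2 of either group (up to 0.118) and the 22Rv1 call without shCSN5 replicate 2 (0.0702).

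ATG4A, a protease that trims ATG8 proteins before conjugation, had 70.8 and 52.7 CPM in LNCaP shCSN5 libraries, against 24.8 and 27.5 CPM in LNCaP scramble libraries (1.24 ± 0.19), and rose in C4-2 (0.45 ± 0.12) and 22Rv1 (0.53 ± 0.10). PC3 gave -0.20 ± 0.14 in knockdown and -0.13 ± 0.061 with CSN5i-3, neither of them called. The LNCaP call was lost without scramble replicate 1 (adjusted p = 0.0626). The calls in C4-2 knockdown and in 22Rv1 with CSN5i-3 were lost in 5 and 4 alternatives, with adjusted p up to 0.162 and 0.303. ATG12, the ubiquitin-like protein joined to ATG5, rose in LNCaP (0.65 ± 0.17) and PC3 knockdown (0.62 ± 0.12) and with CSN5i-3 in the same lines (0.63 ± 0.094 and 0.38 ± 0.032). Its knockdown calls were lost in LNCaP without either scramble library (adjusted p up to 0.441) and in PC3 without shCSN5 replicate 1 (adjusted p = 0.167). ATG7, the E1-like enzyme, was called lower in PC3 with CSN5i-3, at 46.3 and 47.2 CPM in PC3 CSN5i-3 libraries, against 80.2 and 78.4 CPM in PC3 DMSO libraries (-0.76 ± 0.038). In the same libraries ATG3, the E2-like enzyme for ATG8 proteins, was higher (0.62 ± 0.034) and so was ATG5 (0.40 ± 0.051). ATG4B was called higher in 22Rv1 knockdown (0.30 ± 0.10) and LNCaP with CSN5i-3 (0.70 ± 0.10) and lower in PC3 with CSN5i-3 (-0.14 ± 0.033). The 22Rv1 call of ATG4B was lost in 5 alternatives, among them the omission of either shCSN5 library or scramble replicate 2 (adjusted p up to 0.256).

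The lines with a call differed among the 3 MiT/TFE factors. Of the differences between pairs of lines, that of MITF in PC3 against LNCaP knockdown was the only one called. In LNCaP knockdown TFEB changed by 1.19 and was not called. All 3 changes were positive in 22Rv1 with CSN5i-3, at 0.41 to 1.23, and none was called. TFEB had 12.5 and 10.6 CPM in 22Rv1 shCSN5 libraries, against 6.68 and 4.91 CPM in 22Rv1 scramble libraries (1.0 ± 0.18), and was higher in C4-2 knockdown (0.83 ± 0.21), in LNCaP with CSN5i-3 (0.58 ± 0.15) and in the pair titled C5i (0.77 ± 0.11). In PC3, where TFEB stood between 1.79 and 5.64 CPM, its changes were -0.11 ± 0.31 and -0.02 ± 0.11, neither called. TFE3 was higher in LNCaP with CSN5i-3, at 146 and 146 CPM in LNCaP CSN5i-3 libraries, against 76.2 and 79.2 CPM in LNCaP DMSO libraries (0.91 ± 0.065), in 22Rv1 knockdown (0.49 ± 0.13) and in the pair titled C5i (0.92 ± 0.077). In PC3 with CSN5i-3 it was lower by a small amount (-0.10 ± 0.028), a call lost without DMSO replicate 2 (adjusted p = 0.0517). The C4-2 call of TFEB was lost without shCSN5 replicate 1 or either scramble library (adjusted p up to 0.195), and its LNCaP inhibitor call without either CSN5i-3 library (up to 0.0766). MITF was called in PC3 alone. It had 42.2 and 39.3 CPM in PC3 shCSN5 libraries, against 20.1 and 18.1 CPM in PC3 scramble libraries (1.09 ± 0.13), and 32.4 and 33 CPM in PC3 CSN5i-3 libraries, against 11 and 9.95 CPM in PC3 DMSO libraries (1.64 ± 0.062). Both treated libraries lay above both controls in each PC3 experiment.

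Of the lysosomal membrane proteins, CD63, a tetraspanin of late endosomes, was called higher in 3 knockdown lines and in all 3 inhibitor lines. It had 497 and 494 CPM in LNCaP CSN5i-3 libraries, against 206 and 201 CPM in LNCaP DMSO libraries (1.28 ± 0.056), and 318 and 304 CPM in C4-2 shCSN5 libraries, against 191 and 193 CPM in C4-2 scramble libraries (0.70 ± 0.087). In PC3 with CSN5i-3 the change was 0.15 ± 0.022. Its calls in LNCaP knockdown (0.41 ± 0.12), 22Rv1 knockdown (0.24 ± 0.073) and 22Rv1 with CSN5i-3 (0.53 ± 0.12) were lost when 1 library was left out, with adjusted p over all alternatives up to 0.551, 0.118 and 0.231. LAMP1, a common lysosomal membrane marker, rose in C4-2 (0.50 ± 0.091) and 22Rv1 knockdown (0.48 ± 0.076), in LNCaP with CSN5i-3 at 270.1 and 261 CPM in LNCaP CSN5i-3 libraries, against 134 and 139 CPM in LNCaP DMSO libraries (0.96 ± 0.061), and in PC3 with CSN5i-3 (0.23 ± 0.026). LAMP2, its relative with a part in chaperone-mediated autophagy, had 233 and 229 CPM in PC3 CSN5i-3 libraries, against 128 and 123 CPM in PC3 DMSO libraries (0.88 ± 0.028). Its LNCaP knockdown call (0.47 ± 0.14) was lost without either scramble library (adjusted p up to 0.501), and the C4-2 call of LAMP1 without shCSN5 replicate 2 (adjusted p = 0.0584). MCOLN1, the lysosomal calcium channel, was higher in 22Rv1 knockdown (0.44 ± 0.13) and PC3 with CSN5i-3 (0.34 ± 0.031) and lower in the pair titled C5i, at 13.4 and 16.7 CPM in C4-2 titled C5i libraries, against 25.2 and 21.4 CPM in C4-2 titled NT libraries (-0.63 ± 0.13). The 22Rv1 call of MCOLN1 was lost with DESeq2, without shCSN5 replicate 1 and with a spread shared over all shRNA libraries (adjusted p over the alternatives up to 0.284).

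CD68, a lysosomal glycoprotein best known from macrophages, gave the largest fold change of any member in the 8 comparisons. It had 25 and 24.6 CPM in LNCaP CSN5i-3 libraries, against 0.28 and 0.358 CPM in LNCaP DMSO libraries, a change of 6.26 ± 0.15. The pair titled C5i held 51.1 and 52.6 CPM against 6.80 and 6.78 CPM in the pair titled NT (2.93 ± 0.10). In the other comparisons CD68 stayed under 2 CPM, and it was called higher in C4-2 knockdown (1.82 ± 0.39), in 22Rv1 with CSN5i-3 (2.86 ± 0.60) and in PC3 with CSN5i-3 (0.67 ± 0.21). In 22Rv1 knockdown it had 7 counts over the shCSN5 libraries and 0 over the scramble libraries, at least 2.33-fold higher against a floor of 3 counts over the group, and was not tested. The C4-2 knockdown call was lost with DESeq2 and without scramble replicate 1 (adjusted p up to 0.145), and the 22Rv1 inhibitor call without DMSO replicate 1 (adjusted p = 0.0501).

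The macrophage and leukocyte markers were measured beside CD68. In LNCaP 3 of 5 were listed in the table (CD14, CSF1R and LYZ) and summed to 0.497 to 0.811 CPM with CSN5i-3 against 0.143 to 0.152 CPM with DMSO. Between the titled C4-2 pairs the same 3 summed to 0.760 to 0.804 CPM in the libraries titled C5i, against 8.25 to 8.76 CPM in those titled NT, the reverse of CD68. PTPRC and CD3E were not listed in either table. In the other 6 comparisons the 5 markers summed to 0.193 to 3.45 CPM in shCSN5 or CSN5i-3 libraries and to 0.0838 to 1.27 CPM in scramble or DMSO libraries. Treated sums lay above control sums in LNCaP, 22Rv1 and PC3 knockdown and in 22Rv1 and PC3 with CSN5i-3. In 22Rv1 they were 1.32 to 1.37 CPM with CSN5i-3, against 0.206 to 0.338 CPM with DMSO. In C4-2 knockdown the ranges met at 0.193 CPM. In GENCODE 29 the annotated gene AC016876.2 covers 81.7% of the exon bases of CD68 on the same strand, and both tables in which CD68 was high are the ones that give symbols in place of Ensembl identifiers. The part of the markers, of the overlap or of the tables in the level of CD68 was not tested.

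**Figure D4:**
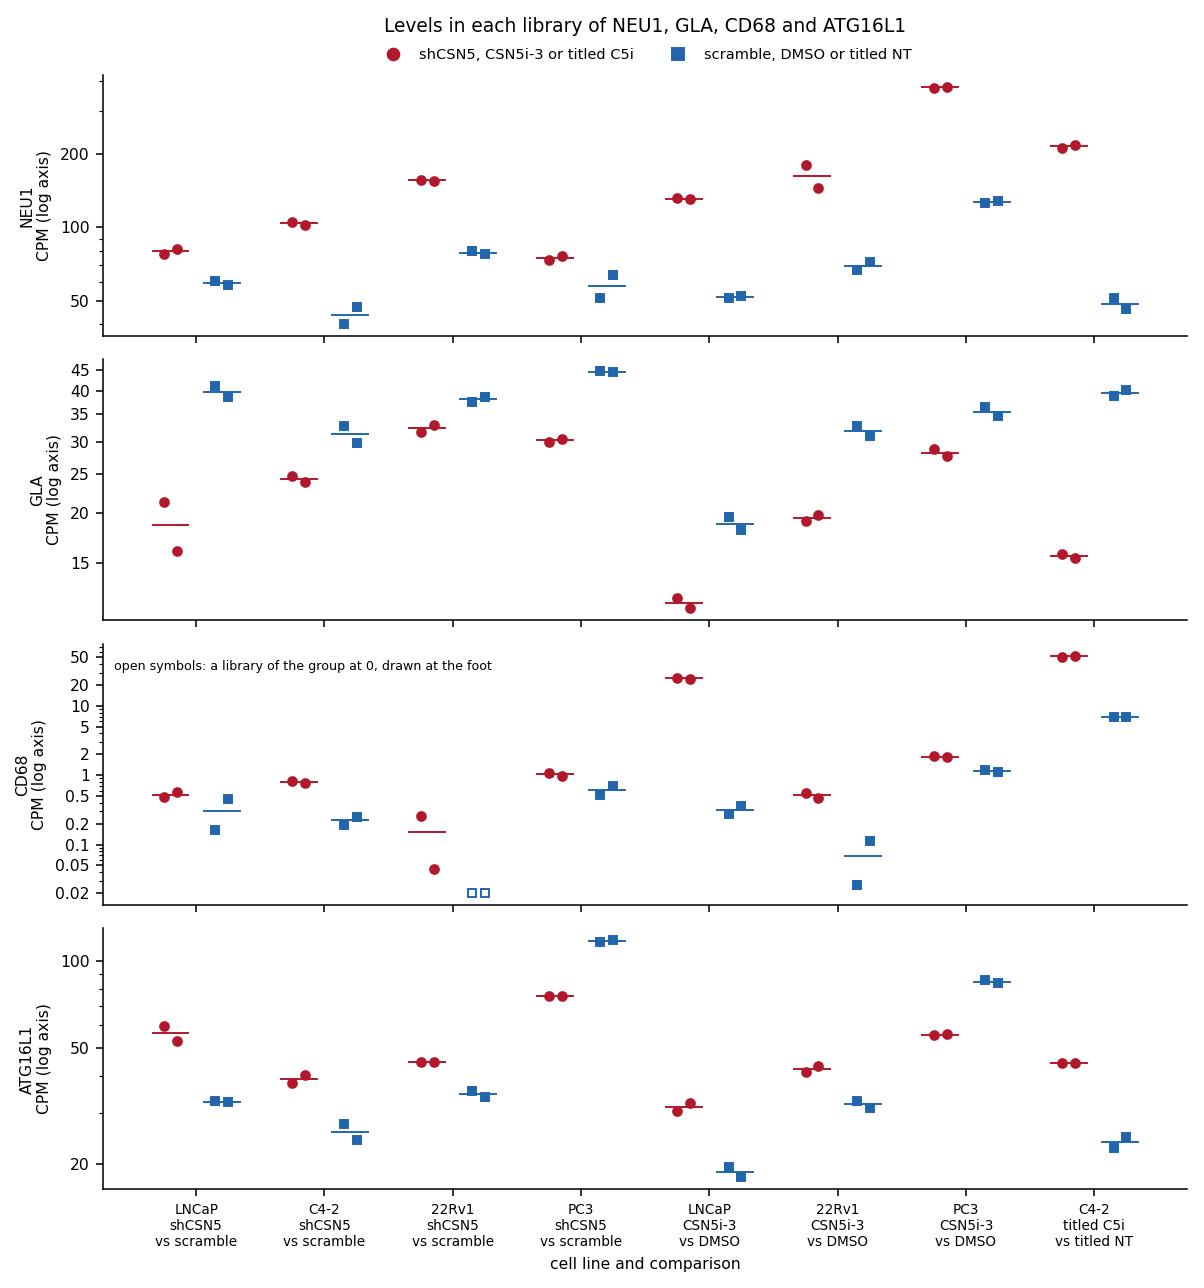
CPM (log axis) of NEU1, GLA, CD68 and ATG16L1 in each of the 32 libraries; circles are shCSN5, CSN5i-3 or titled C5i libraries, squares are scramble, DMSO or titled NT libraries, lines are means of 2. NEU1 is higher and GLA lower in the circles of every comparison, CD68 reaches 25 and 24.6 CPM in LNCaP with CSN5i-3, and ATG16L1 is lower in the circles in PC3 alone.

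Among the 10 lysosomal hydrolases and lipid carriers, NEU1 and GLA moved in opposite directions. NEU1 is a sialidase, and GLA is the alpha-galactosidase that is lacking in Fabry disease. NEU1 had 106 and 102 CPM in C4-2 shCSN5 libraries, against 40.2 and 47.1 CPM in C4-2 scramble libraries (1.25 ± 0.11), and 157 and 155 CPM in 22Rv1 shCSN5 libraries, against 79.8 and 77.5 CPM in 22Rv1 scramble libraries (0.99 ± 0.076). With the inhibitor it had 372 and 377 CPM in PC3 CSN5i-3 libraries, against 126 and 129 CPM in PC3 DMSO libraries (1.56 ± 0.026), with 1.34 ± 0.066 in LNCaP and 1.23 ± 0.16 in 22Rv1. The pair titled C5i exceeded the pair titled NT by 2.14 ± 0.082. No libraries overlapped. In LNCaP knockdown NEU1 changed by 0.43 ± 0.13, a call that was lost in 5 of its alternatives, with adjusted p up to 0.606, and in PC3 knockdown it was not called (0.39 ± 0.14).

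GLA was the exception to the general direction. It had 21.2 and 16.1 CPM in LNCaP shCSN5 libraries, against 41.2 and 38.5 CPM in LNCaP scramble libraries (-1.09 ± 0.19), and 30.0 and 30.4 CPM in PC3 shCSN5 libraries, against 44.7 and 44.5 CPM in PC3 scramble libraries (-0.56 ± 0.11). With CSN5i-3 it fell in LNCaP (-0.65 ± 0.094), 22Rv1 (-0.71 ± 0.17) and PC3 (-0.34 ± 0.049), and the pair titled C5i held 15.9 and 15.5 CPM against 39.0 and 40.2 CPM in the pair titled NT (-1.34 ± 0.094). C4-2 and 22Rv1 knockdown gave -0.37 ± 0.13 and -0.24 ± 0.10, which were not called although both shCSN5 libraries lay below both scramble libraries. The PC3 knockdown call was lost without either shCSN5 library and the 22Rv1 inhibitor call in 4 alternatives, with adjusted p up to 0.233 and 0.222. The LNCaP knockdown call was lost without scramble replicate 1 (adjusted p = 0.0731).

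The cathepsins differed among themselves. CTSD, an aspartic protease, had 531 and 494 CPM in LNCaP CSN5i-3 libraries, against 149 and 214 CPM in LNCaP DMSO libraries (1.5 ± 0.15), and was called higher in C4-2 (0.72 ± 0.23) and 22Rv1 knockdown (0.67 ± 0.14) and in the pair titled C5i (1.61 ± 0.12). The C4-2 call was lost in 7 of 11 alternatives, among them the omission of shCSN5 replicate 1 or of either scramble library (adjusted p up to 0.257), and the 22Rv1 call with a spread shared over all shRNA libraries (adjusted p = 0.213). Its LNCaP shCSN5 libraries stood apart, at 111 and 261 CPM around scramble values of 136 and 125 CPM. CTSB, a cysteine protease, rose in 3 knockdown lines by 0.30 to 0.50, each call lost when 1 library was left out (adjusted p up to 0.417 in LNCaP, 0.166 in C4-2 and 0.0594 in 22Rv1). It also rose in LNCaP with CSN5i-3 (0.78 ± 0.057), and was lower in PC3, at 190.5 and 198 CPM in PC3 CSN5i-3 libraries, against 215 and 218 CPM in PC3 DMSO libraries (-0.16 ± 0.027). CTSL, another cysteine protease, was called in PC3 with CSN5i-3 alone, at 42.9 and 42.6 CPM in PC3 CSN5i-3 libraries, against 67.4 and 69 CPM in PC3 DMSO libraries (-0.67 ± 0.039). CTSA, a carboxypeptidase that also protects NEU1, had 669.6 and 689 CPM in PC3 CSN5i-3 libraries, against 452 and 448 CPM in PC3 DMSO libraries (0.59 ± 0.023), with 1.16 ± 0.088 in LNCaP.

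PSAP, the precursor of the saposins that help glycolipid breakdown, rose in C4-2 (0.55 ± 0.088) and 22Rv1 knockdown (0.52 ± 0.079) and in all 3 inhibitor lines. It had 933 and 785 CPM in 22Rv1 CSN5i-3 libraries, against 404 and 459 CPM in 22Rv1 DMSO libraries (0.99 ± 0.15). NPC2, the soluble cholesterol carrier of the lysosome, had 172 and 171 CPM in PC3 CSN5i-3 libraries, against 101 and 98 CPM in PC3 DMSO libraries (0.79 ± 0.03), and smaller calls in 22Rv1 knockdown (0.23 ± 0.084) and LNCaP with CSN5i-3 (0.29 ± 0.073). LIPA, the acid lipase, was higher in both PC3 experiments (0.46 ± 0.11 with shCSN5 and 0.31 ± 0.036 with CSN5i-3) and lower in the pair titled C5i (-0.24 ± 0.095). Of these the PC3 knockdown call was lost in 5 alternatives, among them median-ratio factors and the omission of either shCSN5 library or scramble replicate 2 (adjusted p up to 0.306). The titled call of LIPA was lost without either library titled C5i or replicate 2 titled NT (up to 0.179). The calls of NPC2 were lost without shCSN5 replicate 2 or scramble replicate 1 in 22Rv1 knockdown (up to 0.335) and without either CSN5i-3 library in LNCaP (up to 0.175).

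HEXA, the alpha chain of beta-hexosaminidase, was all but missing from PC3. The 8 PC3 libraries held 1 HEXA count in 305.9 M counts. For counting error only, 0 counts over all of them would allow up to 0.00981 CPM, and the 1 count seen allows more than that. In the 24 libraries of the other lines HEXA stood at 19.1 to 112 CPM. Those lines showed it higher in 22Rv1 knockdown (0.45 ± 0.11) and with CSN5i-3 in LNCaP (0.65 ± 0.068) and 22Rv1 (0.69 ± 0.17), the last lost without either DMSO library or CSN5i-3 replicate 2 (adjusted p up to 0.297). Levels are set across separately scaled tables here, and no test was made between lines.

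In GENCODE 29, 24 members share exon bases with another gene, 10 of them over 10% of their own. Besides WIPI1, SQSTM1 and CD68 these are CTSD (41.7%), ATG9A (38.8%), GABARAP (30.5%), ATG7 (18.1%), CTSA (17.7%), BECN1 (12.4%) and HEXA (10.1%). For CD68, CTSD, ATG9A and GABARAP the larger overlap is on the same strand. How the authors assigned shared reads is not known here, and the values of these members are uncertain to that extent.

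MiT/TFE factors bind the sequence TCACGTGA, whose core is CACGTG, in lysosomal promoters, so the promoters of the members were searched for both; each reads the same on both strands, and every TCACGTGA holds a CACGTG. RefSeq promoters (250 bases before to 50 bases after the start, GRCh38.p14) were found for 39 of the 45 members, and not for MAP1LC3A, UVRAG, LAMP2, CTSB, HEXA and PSAP. CACGTG was present for 8 of 39 members (20.5%; ATG3, ATG14, LAMP1, CD63, MCOLN1, CTSA, CTSD and NEU1) and for 8.77% of all 27305 genes with a promoter. TCACGTGA was present for 4 of 39 (10.3%; ATG3, LAMP1, MCOLN1 and CTSA) and for 1.18% of all genes. WIPI1, GABARAPL1, SQSTM1 and OPTN, the members called higher in all 4 knockdown and all 3 CSN5i-3 lines, held neither in this window. Sequence outside the window was not searched, and the part of either sequence in the changes was not tested.

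Of the promoters, 4 are shown to set these patterns beside the changes: LAMP1 with 6 copies of CACGTG, MCOLN1 with 2, NEU1 with 1 and GABARAPL1 with 0. Capitals mark CACGTG, and each sequence runs 5′ to 3′ on the strand of its gene. LAMP1 lies on the plus strand at chr13:113296989-113297288, MCOLN1 on the plus strand at chr19:7522374-7522673, NEU1 on the minus strand at chr6:31862772-31863071 and GABARAPL1 on the plus strand at chr12:10212627-10212926.
LAMP1: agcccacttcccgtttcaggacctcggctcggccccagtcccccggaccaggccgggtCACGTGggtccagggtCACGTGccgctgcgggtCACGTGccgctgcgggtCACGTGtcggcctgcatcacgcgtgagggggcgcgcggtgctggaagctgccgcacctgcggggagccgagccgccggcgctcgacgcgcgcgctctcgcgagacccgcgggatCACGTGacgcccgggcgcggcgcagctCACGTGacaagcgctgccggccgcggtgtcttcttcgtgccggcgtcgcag
MCOLN1: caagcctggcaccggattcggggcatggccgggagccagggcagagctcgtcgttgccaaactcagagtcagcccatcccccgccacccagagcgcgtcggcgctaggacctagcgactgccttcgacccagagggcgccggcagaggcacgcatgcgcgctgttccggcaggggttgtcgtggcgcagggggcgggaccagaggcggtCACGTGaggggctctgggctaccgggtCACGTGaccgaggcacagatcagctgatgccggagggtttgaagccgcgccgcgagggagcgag
NEU1: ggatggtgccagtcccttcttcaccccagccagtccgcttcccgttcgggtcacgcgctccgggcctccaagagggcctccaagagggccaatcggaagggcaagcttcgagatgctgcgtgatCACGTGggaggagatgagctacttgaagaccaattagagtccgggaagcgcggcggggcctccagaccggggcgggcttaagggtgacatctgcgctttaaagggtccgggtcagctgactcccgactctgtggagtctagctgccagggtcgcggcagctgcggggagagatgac
GABARAPL1: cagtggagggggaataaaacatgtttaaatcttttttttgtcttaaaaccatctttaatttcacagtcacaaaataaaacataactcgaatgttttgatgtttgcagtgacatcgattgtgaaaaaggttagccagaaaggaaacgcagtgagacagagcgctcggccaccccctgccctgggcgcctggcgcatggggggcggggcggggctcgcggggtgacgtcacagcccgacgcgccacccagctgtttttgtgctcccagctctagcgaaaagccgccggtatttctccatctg
The copies in LAMP1 begin up to 192 bases before the start, those in MCOLN1 41 and 14 bases before it, and that in NEU1 126 bases before it. LAMP1 and NEU1 were called higher in the pair titled C5i (1.21 ± 0.07 and 2.14 ± 0.082), MCOLN1 lower (-0.63 ± 0.13), and GABARAPL1 higher with no copy (3.01 ± 0.08). MCOLN1 was called higher in 22Rv1 knockdown (0.44 ± 0.13) and in PC3 with CSN5i-3 (0.34 ± 0.031), where LAMP1 (0.48 ± 0.076 and 0.23 ± 0.026), NEU1 (0.99 ± 0.076 and 1.56 ± 0.026) and GABARAPL1 (1.43 ± 0.088 and 0.63 ± 0.043) were also called higher. Whether the copies are tied to these changes was not tested.

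Averaged over the 4 knockdown lines in 1 fit with the line as a term, 25 of 45 members were called higher and 1 lower, beside 19.5% and 14.7% of all genes. The median member changed by 0.34 and the median of all genes by 0.04. OPTN (1.66 ± 0.19), GABARAPL1 (1.17 ± 0.11), WIPI1 (1.11 ± 0.12) and SQSTM1 (0.85 ± 0.091) were among the members called, and GLA was the one lower (-0.55 ± 0.11). LIPA (0.34 ± 0.073) and ULK1 (0.58 ± 0.17) were called on average, each of them in 1 line alone. The 45 include members too low to test in 1 line. These are MAP1LC3A in C4-2 (6 and 5 counts), CD68 in 22Rv1 (7 and 0 counts) and HEXA in PC3 (0 counts). They passed the joint filter through the other lines, and no average of theirs is given. MAP1LC3A and CD68 are counted among the 25 called higher, and HEXA was not called.

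The size of the knockdown effect differed between lines for 23 of 45 members, beside 38.8% of all genes. The shCSN5 effect was called lower in PC3 than in LNCaP for 16 members and higher for 1, beside 13.1% and 11% of all genes. GABARAPL2 differed by -1.75 ± 0.14, OPTN by -1.83 ± 0.16, ATG4A by -1.50 ± 0.24, ATG16L1 by -1.47 ± 0.14 and MAP1LC3B by -1.10 ± 0.17. MITF was the one member with the higher effect in PC3 (1.26 ± 0.23). For 9 of the 16, MAP1LC3B, GABARAPL2, NBR1, CALCOCO2, BECN1, ATG4A, LAMP2, CD63 and CTSB, the LNCaP effect was called and the PC3 effect was not. Of these, MAP1LC3B, GABARAPL2 and NBR1 kept the LNCaP call in every alternative. SQSTM1 was not among the 23 (adjusted p = 0.771), with effects of 0.71 to 1.01 in the 4 lines.

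**Figure D5:**
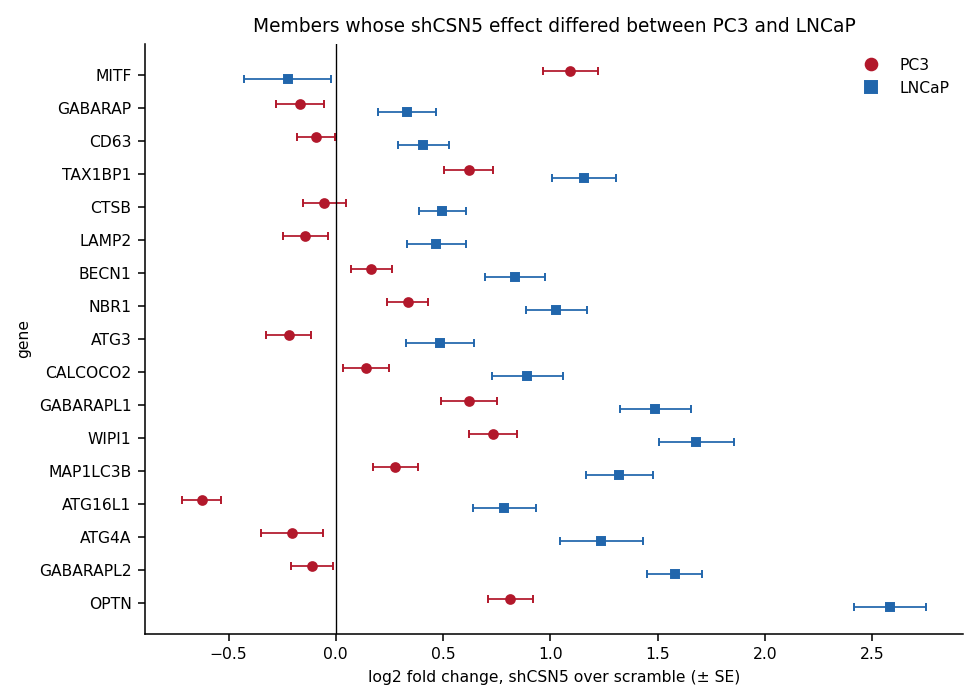
Log2 fold change of shCSN5 over scramble (± SE, 2 libraries per group) in PC3 (circles) and LNCaP (squares) for the 17 members whose effect differed between these lines. All but MITF have the circle left of the square, and ATG16L1 lies at -0.62 in PC3 and 0.78 in LNCaP.

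Between the castration-resistant lines the knockdown effect was called higher in 22Rv1 than in C4-2 for 1 of 45 members, WIPI1 (0.54 ± 0.12), and lower for 4, close to the 5.53% and 7.76% of all genes. The 4 were CALCOCO2 (-0.64 ± 0.11), CD63 (-0.48 ± 0.082), GABARAPL2 (-0.44 ± 0.11) and CTSL (-0.41 ± 0.10). Scaling changed this split: 1 higher and 2 lower with median-ratio factors, and 2 and 2 with total counts. At 5 µM CSN5i-3 the effect was larger in LNCaP than in 22Rv1 for 4 members, CD68 (3.37 ± 0.74), OPTN (1.44 ± 0.27), CD63 (0.72 ± 0.10) and WIPI1 (0.67 ± 0.15), and smaller for GABARAPL1 (-1.25 ± 0.14), beside 5.57% and 10% of all genes. The LNCaP libraries come from a table with symbols and the 22Rv1 libraries from one with Ensembl identifiers. The part of the tables in the CD68 difference was not tested.

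The inhibitor and the knockdown were compared within a line by the difference of their effects, which come from separately prepared tables. In LNCaP the effect of CSN5i-3 was called higher than that of shCSN5 for 8 of 45 members and lower for 7. Of all genes 6.83% and 14.5% were, and the count of lower members lies close to that share. With median-ratio factors the split was 9 and 5. The 8 were CD68 (5.37 ± 0.58), CTSA (0.94 ± 0.15), NEU1 (0.82 ± 0.13), CD63 (0.78 ± 0.13), TFE3 (0.72 ± 0.13), SQSTM1 (0.69 ± 0.19), HEXA (0.57 ± 0.16) and PSAP (0.44 ± 0.10). The 7 were GABARAPL2 (-1.20 ± 0.14), CALCOCO2 (-0.99 ± 0.20), ATG4A (-0.88 ± 0.22), NBR1 (-0.77 ± 0.17), BECN1 (-0.73 ± 0.16), TAX1BP1 (-0.62 ± 0.17) and LIPA (-0.60 ± 0.18).

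In PC3, at 10 µM, the effect of CSN5i-3 was called higher than that of shCSN5 for 18 members and lower for 3, beside 20.5% and 18.6% of all genes. NEU1 (1.24 ± 0.13), UVRAG (1.17 ± 0.14), WIPI1 (1.16 ± 0.10), LAMP2 (1.09 ± 0.12) and NPC2 (1.0 ± 0.087) were among the 18. The 3 were MAP1LC3A (-2.28 ± 0.50), ATG7 (-0.82 ± 0.093) and CTSL (-0.39 ± 0.10). In PC3 knockdown MAP1LC3A changed by 1.44 and was not called. Its replicates differed by 1.14 on the log2 scale in the scramble group and by 0.69 in the shCSN5 group. In 22Rv1 GABARAPL1 (0.99 ± 0.15) and TAX1BP1 (0.76 ± 0.16) had the higher effect with the inhibitor and 0 members the lower one (edgeR; 1 at an unadjusted p under 0.05), beside 2.38% and 1.9% of all genes. The experiments differ in agent, dose and table, which cannot be told apart here.

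Further genes of the pathway were read from lists of textbook members, against shares of all genes called higher and lower of 18.3% and 17.4% in LNCaP knockdown, 15.7% and 16.2% in C4-2, 22.6% and 21.3% in 22Rv1 and 10.3% and 6.41% in PC3. With CSN5i-3 the shares of all genes were 26.2% and 26.5% in LNCaP, 11.8% and 12.2% in 22Rv1 and 38.5% each way in PC3. Between the titled pairs they were 37% and 37.9%. Of 18 other autophagy core genes, 5 were higher in LNCaP knockdown, 5 in C4-2 with 1 lower, 8 in 22Rv1 with 4 lower, and 4 in PC3. With CSN5i-3, 10 were higher and 4 lower in LNCaP, 3 and 2 in 22Rv1, and 14 and 3 in PC3. In the pair titled C5i 9 of 16 were higher and 4 lower. RB1CC1, the FIP200 scaffold of the ULK complex, had 81.8 and 79.1 CPM in C4-2 titled C5i libraries, against 13.7 and 16.1 CPM in C4-2 titled NT libraries (2.43 ± 0.10), and ZFYVE1, which marks the omegasome, rose by 1.07 ± 0.15 in LNCaP and 1.05 ± 0.14 in C4-2 knockdown. ATG4C, another ATG8 protease, was lower in 22Rv1 knockdown (-0.83 ± 0.13) and in LNCaP with CSN5i-3 (-0.76 ± 0.11). Of 14 fusion genes 7 were called higher in LNCaP, 3 in C4-2, 7 in 22Rv1 and 3 in PC3 knockdown, and 1 lower, in 22Rv1. With CSN5i-3, 7 were higher and 0 lower in LNCaP, 3 and 0 in 22Rv1, and 7 and 6 in PC3. In the pair titled C5i 8 were higher and 1 lower. RAB7A, the small GTPase of late endosomes, rose in LNCaP knockdown (1.0 ± 0.12). It had 698 and 599 CPM in LNCaP shCSN5 libraries, against 322 and 328 CPM in LNCaP scramble libraries.

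Among the receptors for organelles, BNIP3L, a mitophagy receptor, had 249.3 and 202 CPM in LNCaP shCSN5 libraries, against 71.9 and 74 CPM in LNCaP scramble libraries (1.63 ± 0.15), and 340.1 and 355 CPM in LNCaP CSN5i-3 libraries, against 104.8 and 96.1 CPM in LNCaP DMSO libraries (1.79 ± 0.07). PHB2, a receptor on the inner mitochondrial membrane, was lower in both (-0.88 ± 0.11 and -0.44 ± 0.056). BNIP3 fell in PC3 knockdown, at 40.7 and 38.3 CPM in PC3 shCSN5 libraries, against 122 and 113 CPM in PC3 scramble libraries (-1.57 ± 0.10). Of this list 6 of 12 were higher and 1 lower in LNCaP knockdown and likewise in C4-2, 6 of 13 were higher in 22Rv1, and 3 of 13 were higher and 1 lower in PC3, beside the shares of all genes given above. With CSN5i-3, 7 of 12 were higher and 3 lower in LNCaP, 3 of 13 and 0 in 22Rv1, and 7 of 13 and 4 in PC3. In the pair titled C5i 6 of 11 were higher and 2 lower.

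Of 30 other lysosomal hydrolases, LNCaP knockdown had 7 higher and 5 lower, close to the 18.3% and 17.4% of all genes. C4-2 knockdown had 7 of 29 higher and 6 lower (15.7% and 16.2% of all genes). In 22Rv1 knockdown 10 of 29 were higher and 4 lower (22.6% and 21.3%), and in PC3 2 of 30 and 2 (10.3% and 6.41%). PC3 with CSN5i-3 had 15 higher and 12 lower, beside 38.5% of all genes in each direction. LNCaP with CSN5i-3 had 11 of 30 higher and 10 lower (26.2% and 26.5%). 22Rv1 with CSN5i-3 had 4 of 29 higher and 0 lower (11.8% and 12.2%). The pair titled C5i had 16 of 30 higher and 8 lower (37% and 37.9%). CTSC, the dipeptidyl peptidase that activates serine proteases, fell in all 4 knockdown lines, by 1.68 on the log2 scale in LNCaP, at 3.01 and 3.12 CPM in LNCaP shCSN5 libraries, against 10.2 and 9.39 CPM in LNCaP scramble libraries. It also fell in LNCaP with CSN5i-3 (-1.86 ± 0.14) and was lower in the pair titled C5i (-1.78 ± 0.10). NPC1, which belongs to another list, is the membrane partner of NPC2 in cholesterol export and had 332 and 306 CPM in LNCaP shCSN5 libraries, against 82.4 and 84.2 CPM in LNCaP scramble libraries (1.94 ± 0.12), and 528 and 521 CPM in PC3 CSN5i-3 libraries, against 188 and 189.9 CPM in PC3 DMSO libraries (1.47 ± 0.025). Of this list of lysosomal membrane and sorting genes 6 of 17 were higher and 1 lower in LNCaP knockdown, 9 of 18 higher in C4-2, 7 of 18 higher and 1 lower in 22Rv1, and 2 of 18 higher and 1 lower in PC3, the last close to the 10.3% and 6.41% of all genes. With CSN5i-3, 7 of 18 were higher and 4 lower in LNCaP, 2 and 0 in 22Rv1, and 13 and 4 in PC3. The 22Rv1 count of higher genes lies close to the 11.8% of all genes. In the pair titled C5i 11 of 18 were higher and 2 lower.

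Of 25 genes of mTORC1 and lysosomal nutrient sensing, the pathway that holds TFEB in the cytoplasm when nutrients are plentiful, 9 were higher and 2 lower in LNCaP knockdown, 11 and 1 in C4-2, 7 and 3 in 22Rv1, and 2 and 3 in PC3. The 22Rv1 count of higher genes and both PC3 counts lie near the shares of all genes, 22.6% higher in 22Rv1 and 10.3% higher and 6.41% lower in PC3. With CSN5i-3, 9 were higher and 4 lower in LNCaP, 7 and 1 in 22Rv1, and 15 and 7 in PC3. The pair titled C5i had 14 higher and 7 lower. The shares of all genes in these comparisons are given above. MTOR, the kinase itself, fell in all 4 knockdown lines, by 0.93 in LNCaP, 0.73 in C4-2, 0.77 in 22Rv1 and 0.65 in PC3 on the log2 scale. SESN2, a leucine sensor that restrains mTORC1, had 38.5 and 45.8 CPM in PC3 shCSN5 libraries, against 5.16 and 8.97 CPM in PC3 scramble libraries (2.58 ± 0.28), and 236 and 256 CPM in C4-2 titled C5i libraries, against 22.8 and 22.5 CPM in C4-2 titled NT libraries (3.44 ± 0.085). DDIT4, another inhibitor of mTORC1, rose in C4-2 (1.96 ± 0.10) and PC3 knockdown (2.39 ± 0.18).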

How the data were processed

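The authors deposited whole-number counts per gene and library in 6 tables, made with Partek per the submitters' processing notes; the sources used here do not give the aligner, genome build, annotation or strand. LNCaP and PC3 share a knockdown table, as do 22Rv1 and C4-2, and each line has its own inhibitor table. The LNCaP and C4-2 inhibitor tables give symbols and the other 4 Ensembl identifiers with symbols. Each comparison was fitted on its own 4 libraries (2 residual degrees of freedom) with edgeR 4.0.16 in R 4.3.3, quasi-likelihood F tests on TMM-scaled libraries, genes being kept by filterByExpr at 10 counts, and p adjusted by Benjamini-Hochberg over all genes tested. SE is the absolute log2 fold change over the square root of F. Differences between lines and between experiments were contrasts of joint fits. Rows were joined by Ensembl identifier, or by common symbols where the LNCaP inhibitor libraries took part. DESeq2 1.42.0 was an alternative, with RLE and total-count scaling, no filter, a replicate block and left-out libraries; the method was tested on simulated data. Genes named are those called in at least 3 knockdown lines, the 2 highest and 2 lowest called per comparison, and those with opposite calls; other members and their library values were chosen after values were seen; genes of other lists are the 2 higher and 2 lower with the smallest adjusted p. A few genes of the marker and other lists are not reported here and were left out of their counts and sums. Members and lists were chosen with earlier results of these data known. Replicates within a group differed by more than counting error in every group (chi-square per gene 1.70 to 65.2).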

Additional observations from a re-analysis of the deposited data

Results flagged for a closer look

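The following differences between lines or experiments were tested as contrasts of joint fits. The shCSN5 effect differed between the 4 lines for 23 of 45 members, beside 38.8% of all genes. It differed for 17 members between PC3 and LNCaP, where 11% of all genes had the higher and 13.1% the lower effect in PC3. Between 22Rv1 and C4-2 it differed for 5, close to the 5.53% and 7.76% of all genes with the higher and lower effect in 22Rv1. The effect of 5 µM CSN5i-3 differed for 5 members between LNCaP and 22Rv1, beside 5.57% and 10% of all genes. Inhibitor and knockdown effects differed for 15 members in LNCaP (6.83% and 14.5% of all genes), 2 in 22Rv1 (2.38% and 1.9%) and 21 in PC3 (20.5% and 18.6%). ATG16L1 was the member called in opposite directions in the lines compared, lower in PC3 and higher in LNCaP knockdown, with a difference of -1.47 ± 0.14 on the log2 scale. No outlier check within groups was made, since each group has 2 libraries.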

How the results depend on the processing

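Of the 206 calls of members in the 8 comparisons, 142 held in every alternative fitted to their comparison and 64 were lost in at least 1, while 0 changed sign. Leaving out 1 library gave 9 to 40 members called in LNCaP knockdown (21 with all libraries), 13 to 16 in C4-2 (19), 22 to 32 in 22Rv1 (30), 3 to 15 in PC3 (11), 27 to 37 in LNCaP with CSN5i-3 (34), 7 to 18 in 22Rv1 (14), 38 to 40 in PC3 (39) and 34 to 39 in the titled C4-2 pairs (38). A lone library is assumed to vary like the other group. Same-numbered libraries share only a number by the labels, and the correlation of their deviations from the group means ran from -0.85 to 0.77 over the 8 comparisons. With the replicate number as a block, PC3 knockdown had 28 calls, 18 higher and 10 lower, where 52.9% of all genes were called (16.7% without the block), and the other 7 comparisons and the average stayed within 1.5 times of their counts; with 2 pairs per comparison this is no test of pairing. Median-ratio factors gave 3 calls for 22Rv1 minus C4-2 and 1 for inhibitor minus knockdown in 22Rv1, where total counts also gave 1; the cause was not tested. The remaining counts stayed within 1.5 times under median-ratio and total-count scaling, no filter, DESeq2 and the spread shared by all 16 shRNA libraries. Total-count scaling moved the median of all genes to 0.11 in PC3 knockdown, -0.10 in LNCaP with CSN5i-3 and -0.21 in the titled pairs, where the members' medians were 0.17, 0.47 and 0.68; it moved it to 0.17 for PC3 minus LNCaP, 0.13 for 22Rv1 minus C4-2, -0.10 for LNCaP minus 22Rv1 and -0.13 for inhibitor minus knockdown in both 22Rv1 and PC3. Of 116 calls of the 20 members named by rule, 116 were kept with median-ratio factors, 114 with total counts, 114 without a filter, 111 with DESeq2 and 108 with the replicate block. With 2 residual degrees of freedom per comparison, members whose libraries spread widely (ULK1, CTSD, ATG2A and TFEB) can change by 1 log2 unit and miss the threshold, as TFEB did in LNCaP knockdown (1.19 ± 0.38, adjusted p = 0.0544).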

Other observations

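The spread between the libraries of a group was not even over the members. ULK1 differed by more than 0.5 on the log2 scale between the libraries of 8 of 16 groups, CTSD of 7 of 16, MAP1LC3A of 7 of the 12 in which it was tested and ATG2A of 6 of 16. The longest coding transcripts of these genes in GENCODE 29 have the highest GC contents of the members, at 64.2% for ULK1, 64.0% for CTSD, 64.5% for MAP1LC3A and 64.0% for ATG2A, where the members range from 37.5% to 64.5%. Across members, the log2 ratio of replicate 1 to replicate 2 correlated with GC content beyond 0.7 in size in 10 of 16 groups, from r = -0.89 in PC3 scramble to r = 0.89 in 22Rv1 CSN5i-3 libraries (44 and 45 genes of 1 pair of libraries each, which are not independent replicates). The sign carries no meaning, since the numbering of replicates is arbitrary. The members' change between groups correlated less with GC content, from -0.40 in PC3 with CSN5i-3 to 0.39 in 22Rv1 knockdown. Of the 11 members with the highest GC contents, 10 were called higher in 22Rv1 knockdown and 10 in LNCaP with CSN5i-3. Of the others 19 of 33 and 23 of 34 were. In PC3 with CSN5i-3, 5 of the 11 were higher and 4 lower, and of the others 25 of 33 and 5. In LNCaP knockdown 1 of the 11 and 19 of 34 others were higher. The part of GC content in the calls was not tested.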
